A study of Rattus norvegicus with 30 samples.

Results

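The genes described here encode enzymes that make NADPH or carry out the pentose phosphate pathway: Pgd, Taldo1, Tkt, Me1, Me2, Me3, Idh1, Idh2 and Nnt. They were chosen by name for what their products do, with earlier results of these data known. Of these 9 genes, 8 were found by symbol among the 21993 genes of the tables used, and all 8 passed the filter on low counts in every comparison. Pgd was not analysed here, because no row carried its symbol.

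RNA was sequenced from primary hippocampal neurons of Wistar rat embryos at day 18 of gestation, kept for 7 days in culture and then treated for 4 or 24 h. The treatments were 30 µM dimethyl fumarate (DMF) or 30 µM monomethyl fumarate (MMF), each with dimethyl sulfoxide (DMSO) as vehicle, and 6 µM cannabidiol (CBD), with ethanol (EtOH) as vehicle. DMF is a diester of fumaric acid and MMF is the monoester that remains when a methyl group is lost. There were 10 groups of 3 libraries, 30 in all, and the vehicle made up 0.2% of the medium in drug and control wells alike. No transgene or deletion was involved, and DMF and MMF were compared with the same 3 DMSO libraries at each time, so their effects are not independent of each other. The study states that each experiment was repeated 3 times. The replicate number comes from the library titles, which do not say whether it marks one of these repeats. Libraries of the same replicate number deviated together from their group means. A fit with the replicate number as a block is therefore given wherever it changed the call of one of the 8 enzymes.

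NADPH is the electron donor for fatty acid and sterol synthesis and for the glutathione and thioredoxin systems that remove peroxides. In the cytosol it comes mainly from the oxidative branch of the pentose phosphate pathway, from malic enzyme 1 and from isocitrate dehydrogenase 1, and in mitochondria from isocitrate dehydrogenase 2, the mitochondrial malic enzymes and the transhydrogenase Nnt. Several of the cytosolic genes are known targets of Nrf2, a transcription factor that binds antioxidant response elements and that electrophiles such as fumarates activate.

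The libraries held between 15108132 and 25367834 reads on genes, with a median of 20088658. Levels across all 30 libraries are given as CPM, counts-per-million of the library's reads on genes. The defining markers of neurons summed to between 3488 and 4828 CPM in each library, markers of astrocytes to between 2128 and 5564, and markers of the oligodendrocyte lineage to between 466 and 1093, so the cultures held RNA of these 3 lineages. Markers of microglia summed to at most 12.4 and those of endothelium to at most 12.2 CPM. In these bulk samples, fewer cells of a type and less RNA per cell cannot be told apart.

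The changes among the 8 genes were concentrated in DMF. At 24 h, Me1 was 2.15 times as high with DMF as with DMSO and Idh1 was 0.799 times as high. These were the 2 of 8 genes called, that is with an adjusted p under 0.05 (limma, Benjamini-Hochberg over all genes), where 3.97% of all 13967 genes tested were called. At 4 h, 0 of 8 passed by limma, where 3.41% of all 14208 genes tested did. DESeq2 and edgeR also called 0 of 8, where they called 1024 and 498 of the 14208 genes. By limma 2 of 8, Me2 and Idh2, stood at an unadjusted p under 0.05, where 2852 of the 14208 genes did. The replicate block called more: 3 of 8 at 4 h (23.0% of all genes) and 5 of 8 at 24 h (12.9% of all genes).

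**Figure D1:**
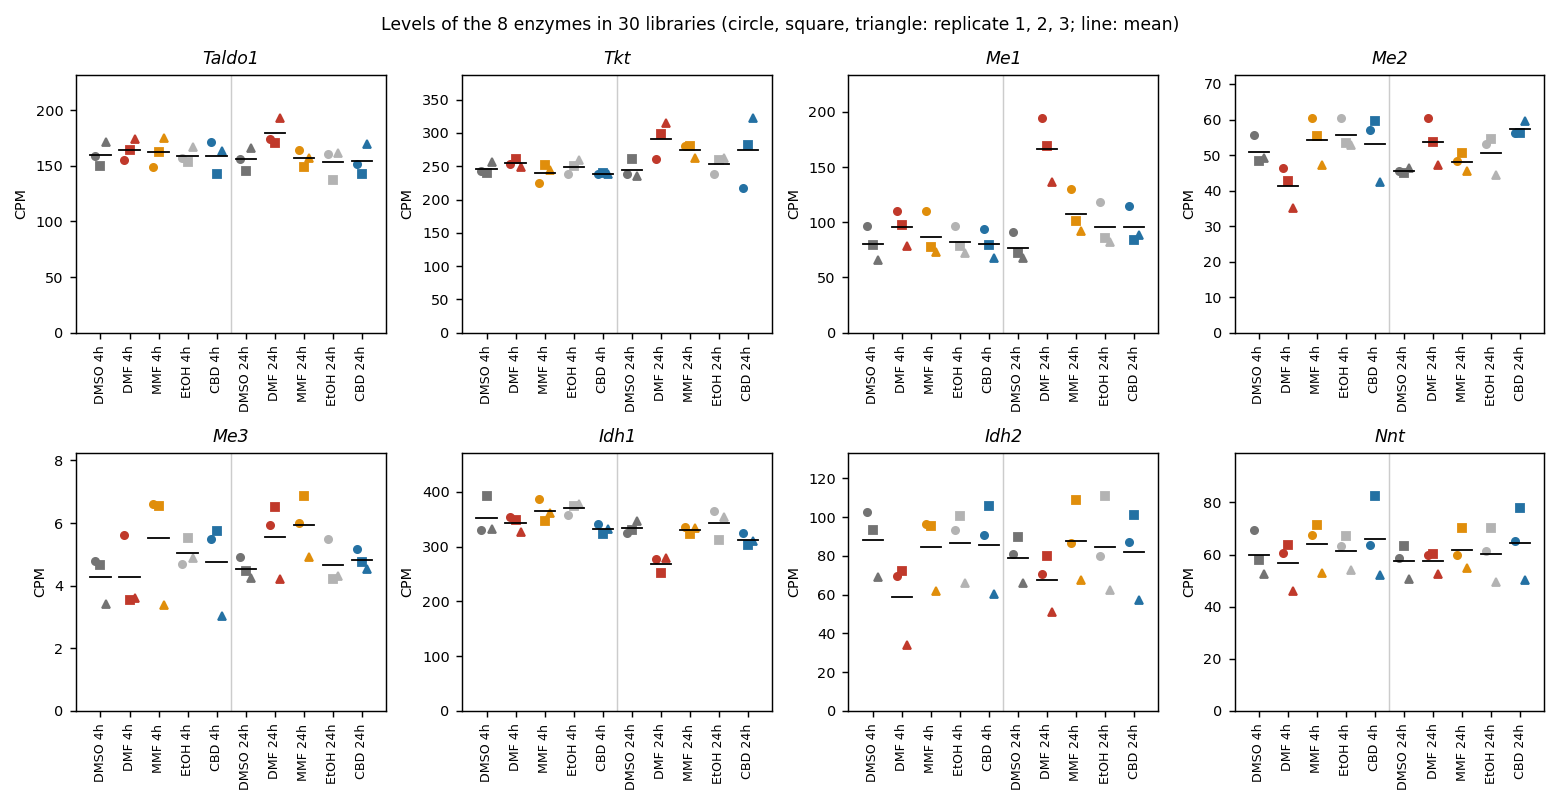
Level of each of the 8 enzymes in CPM (y axis, linear from 0) in the 10 groups (x axis), with 1 symbol for each library and a line at the group mean. Me1 with DMF at 24 h, between 137 and 195, lay above every other library of every group, and Idh1 was lowest in the 3 libraries with DMF at 24 h.

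Among the genes of cytosolic NADPH supply, Me1 (ENSRNOG00000009715, chr8:87549043-87660304 on mRatBN7.2) encodes malic enzyme 1, which turns malate into pyruvate while reducing NADP. At 24 h its normalised read counts were 3596, 3156 and 2554 with DMF, and 1704, 1359 and 1264 with DMSO. All DMF libraries lay above all DMSO libraries. The log2 fold change was 1.10 (95% interval 0.78 to 1.42, adjusted p = 0.00406 by limma), with log2 ratios of 1.08, 1.22 and 1.01 within replicate numbers 1, 2 and 3. The call held in all 6 fits that left out 1 library. At 4 h the counts were 2163, 1940 and 1610 with DMF, and 1899, 1576 and 1324 with DMSO. These groups overlapped, and the log2 fold change of 0.26 did not pass (adjusted p = 0.386 by limma), although every replicate number was higher with DMF. With the replicate block it did pass (adjusted p = 0.00344).

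With MMF for 24 h, Me1 had 2532, 1958 and 1797 normalised reads, against 1793, 1427 and 1328 with DMSO in the same table. Again no MMF library fell within the range of the DMSO libraries. The log2 ratios were alike in the 3 replicate numbers, at 0.50, 0.46 and 0.44. The log2 fold change of 0.46 (95% interval 0.14 to 0.79) had an adjusted p of 0.952 by limma and of 4.54e-05 with the replicate block. At 4 h with MMF it was 0.09 (95% interval -0.31 to 0.48), and with CBD it was -0.05 at 4 h and -0.04 at 24 h.

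Over the 10 groups, Me1 was lowest with DMSO at 24 h, at 77.1 ± 12.8 CPM (SD, n = 3). It then stood at 80.0 ± 13.2 with CBD at 4 h, at 80.7 ± 15.2 with DMSO at 4 h and at 82.5 ± 12.8 with EtOH at 4 h. MMF at 4 h followed with 87.1 ± 20.5 and DMF at 4 h with 95.4 ± 15.9. None of these neighbours differed by more than their SD. Both groups of the CBD comparison at 24 h had a mean of 95.6, with an SD of 16.9 for CBD and 19.8 for EtOH. MMF at 24 h had 108 ± 19.6 and DMF at 24 h had 167 ± 29.3, and this last step was the only one in the order that exceeded the SD of both neighbours.

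Idh1 (ENSRNOG00000015020, chr9:66534146-66563708), the isocitrate dehydrogenase of the cytosol and peroxisomes, moved the other way. At 24 h it had 5114, 4687 and 5210 normalised reads with DMF, and 6064, 6214 and 6501 with DMSO. All DMF libraries were below all DMSO libraries. The log2 fold change was -0.32 (95% interval -0.47 to -0.18, adjusted p = 0.0304 by limma). The direction was the same in all 6 fits that left out 1 library, but the call held only in the fit without DMF replicate 3 (adjusted p = 0.0157). Without DMF replicate 1 or 2 the adjusted p was 0.0535 and 0.121. Without DMSO replicate 1, 2 or 3 it was 0.117, 0.107 and 0.124. With all libraries and the replicate block it was 0.00292.

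At 4 h the Idh1 groups overlapped, and the log2 fold change with DMF was -0.02 (95% interval -0.21 to 0.17). With CBD, Idh1 had 6625, 6277 and 6518 normalised reads at 4 h against 6989, 7291 and 7491 with EtOH. At 24 h it had 6030, 5697 and 5747 with CBD against 6824, 6034 and 6933. At both times all CBD libraries lay below all EtOH libraries, with log2 fold changes of -0.16 (adjusted p = 1 by limma) and -0.18 (adjusted p = 0.547), which did not pass with the replicate block either (adjusted p = 0.0671 and 0.243).

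The order of Idh1 levels began with DMF at 24 h, at 269 ± 15.5 CPM (SD, n = 3), followed by CBD at 24 h with 312 ± 11.0 and MMF at 24 h with 331 ± 6.57. These first steps exceeded the SD of both neighbours. The other 7 groups ran from 332 ± 9.57 with CBD at 4 h to 370 ± 10.6 with EtOH at 4 h, and no neighbours among them differed beyond their SD.

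The promoters of the 9 enzymes were searched for the core letters of the antioxidant response element, TGACNNNGC on either strand, in the window from 250 bases before to 50 bases after the annotated start (RefSeq, build GRCr8, which differs from the mRatBN7.2 of the counts). The letters were found for 3 of 9, Me1, Idh1 and Nnt, and in 4038 of 33469 promoters of the same length, or 12.1%. The match begins at position -167 from the start of Me1, at -83 for Idh1 and, on the reverse strand, at -60 for Nnt. The 250 bases before the start of the 2 genes called with DMF at 24 h are shown 5′ to 3′ on the strand of the gene, with the match in capitals. They lie on the minus strand, at chr8:96540245-96540494 for Me1 and chr9:74049475-74049724 for Idh1, both on GRCr8.
Me1: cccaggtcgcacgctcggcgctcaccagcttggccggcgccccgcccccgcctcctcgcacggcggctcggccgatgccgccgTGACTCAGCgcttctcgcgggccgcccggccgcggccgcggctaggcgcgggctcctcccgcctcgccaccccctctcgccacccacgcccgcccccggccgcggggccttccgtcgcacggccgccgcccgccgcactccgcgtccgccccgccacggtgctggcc
Idh1: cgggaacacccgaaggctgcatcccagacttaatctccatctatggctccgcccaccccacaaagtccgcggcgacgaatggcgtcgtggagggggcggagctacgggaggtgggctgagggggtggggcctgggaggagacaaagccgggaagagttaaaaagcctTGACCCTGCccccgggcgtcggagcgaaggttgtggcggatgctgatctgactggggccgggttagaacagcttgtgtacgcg
Both windows hold the letters, Me1 as TGACTCAGC and Idh1 as TGACCCTGC. Whether either match bears on the changes with DMF at 24 h was not tested. Such a match is a description and not a measured binding site.

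Taldo1 and Tkt encode transaldolase and transketolase, which exchange carbon units in the non-oxidative branch of the pentose phosphate pathway. At 24 h Taldo1 (ENSRNOG00000018367, chr1:196493589-196503974) had 3215, 3192 and 3618 normalised reads with DMF, and 2902, 2732 and 3120 with DMSO. The groups did not overlap. The log2 fold change of 0.20 (95% interval 0.02 to 0.37) had an adjusted p of 0.22 by limma and of 0.0289 with the replicate block. Tkt (ENSRNOG00000016064, chr16:5723762-5748698) had 4813, 5576 and 5882 with DMF at 24 h, and 4447, 4900 and 4415 with DMSO. One DMF library fell within the DMSO range, and the log2 fold change was 0.24 (95% interval 0.04 to 0.43, adjusted p = 0.187 by limma and 0.0315 with the replicate block). Both were called only with the block. At 4 h their log2 fold changes with DMF were 0.05 and 0.06, and neither passed with or without the block.

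The mitochondrial genes were Me2, Me3, Idh2 and Nnt. Me2 (ENSRNOG00000015582, chr18:67355795-67400987), a malic enzyme of mitochondria, stood on opposite sides of its control at the 2 times. At 4 h it had 912, 846 and 722 normalised reads with DMF, and 1097, 953 and 983 with DMSO. No DMF library reached the DMSO range, and the log2 fold change was -0.29 (adjusted p = 0.164 by limma, 0.00653 with the replicate block). At 24 h it had 1113, 1002 and 885 with DMF, and 847, 843 and 871 with DMSO. All DMF libraries were then the higher ones, and the log2 fold change of 0.22 did not pass (adjusted p = 0.237 by limma, 0.0916 with the replicate block). Leaving out DMF replicate 3 at 24 h gave 0.31 and an adjusted p of 0.0437.

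Idh2 (ENSRNOG00000013949, chr1:134029772-134058025), the isocitrate dehydrogenase of mitochondria, had 1367, 1431 and 704 normalised reads with DMF at 4 h, and 2025, 1844 and 1383 with DMSO. DMF replicate 2 lay just above DMSO replicate 3, so the groups overlapped. Within replicate numbers, each DMF library was the lower one, with log2 ratios of -0.57, -0.37 and -0.97. The log2 fold change of -0.64 (95% interval -1.24 to -0.03) had an adjusted p of 0.229 by limma and of 0.000107 with the replicate block. At 24 h the counts were 1309, 1498 and 957 with DMF, and 1514, 1683 and 1241 with DMSO. These groups overlapped too, with a log2 fold change of -0.25 (adjusted p = 0.488 by limma, 0.0251 with the replicate block).

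**Figure D2:**
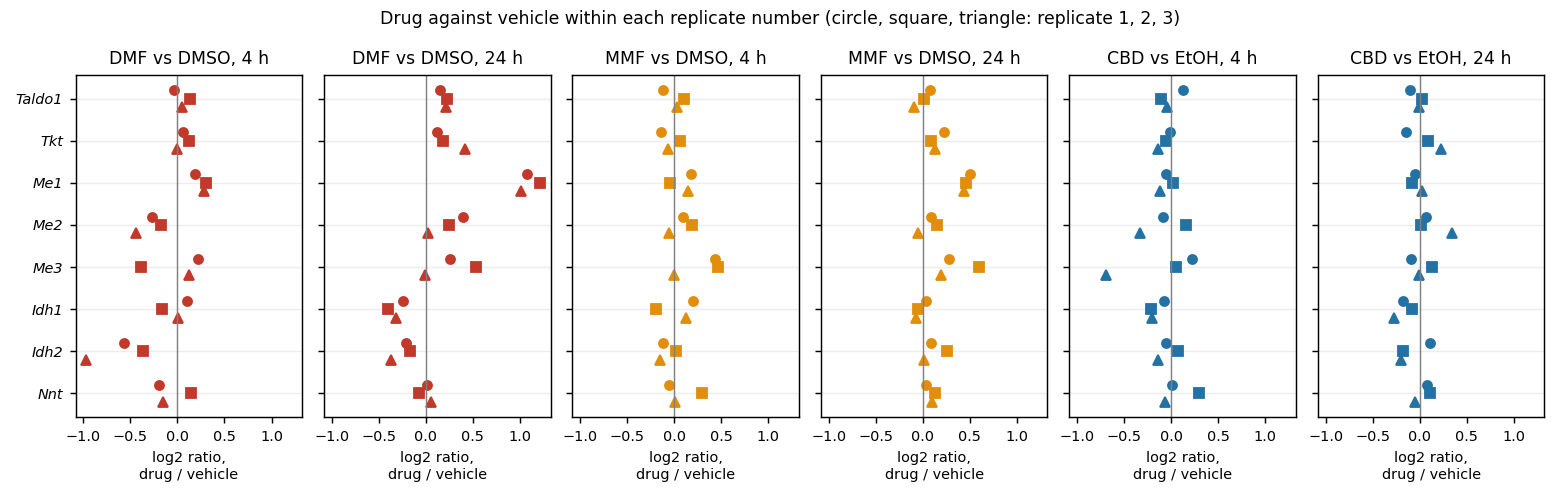
Log2 ratio of drug to vehicle (x axis) for each of the 8 enzymes (y axis) within each of the 3 replicate numbers, for the 3 drugs at 2 times. The Me1 ratios with DMF at 24 h, between 1.01 and 1.22, are the highest of the plot, and the lowest is the Idh2 ratio of replicate 3 with DMF at 4 h, at -0.97.

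Idh2 levels followed the replicate number more than the treatment. Of its variation over the 30 libraries on the log2 scale, 64.6% lay between replicate numbers and 27.5% between groups. Replicate 3 had the lowest Idh2 level of its group in all 10 groups, with between 34.3 and 69.0 CPM, against no less than 69.6 in replicate 1 and 72.1 in replicate 2. The order of the group means ran from 58.6 ± 21.1 (SD, n = 3) with DMF at 4 h and 67.4 ± 14.9 with DMF at 24 h to 88.3 ± 17.4 with DMSO at 4 h. No neighbours in that order differed by more than their SD.

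Nnt (ENSRNOG00000026842, chr2:51411413-51504823), the mitochondrial transhydrogenase that drives NADPH formation with the proton gradient, showed the same replicate pattern and no change with treatment that passed. Between replicate numbers lay 71.6% of its variation, and replicate 3 was lowest in 10 of 10 groups, at 46.0 to 54.9 CPM. With DMF at 24 h it had 1101, 1124 and 982 normalised reads, against 1091, 1185 and 948 with DMSO. These groups lay on top of each other, and the 95% interval of the log2 fold change was -0.22 to 0.21.

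The 8 astrocyte markers, taken as a sum, moved with these numbers. Their summed level was also lowest in replicate 3 in all 10 groups, at 2128 to 3080 CPM, against 3719 to 5064 in replicate 1 and 4186 to 5564 in replicate 2. Between the groups of the DMF comparison their ranges overlapped, at 2128 to 4338 with DMF and 2495 to 4386 with DMSO at 4 h, and at 3080 to 5564 and 2851 to 4837 at 24 h. Within replicate numbers the sum at 24 h was higher with DMF in all 3, at 5064 against 4068, 5564 against 4837 and 3080 against 2851. By limma 0 of the 8 markers were called with DMF at either time. With the block Gfap, the astrocyte filament gene, was called lower at 4 h (-0.47, adjusted p = 0.000265) and higher at 24 h (0.76, 4.17e-05). Sox9 was called lower at 4 h (-0.18) and 24 h (-0.29), and Aqp4 (-0.71) and Slc1a3 (-0.20) were lower at 24 h, so the markers did not move one way. None of the 8 markers was at 0 in all libraries. The part of astrocyte RNA in the Idh2 and Nnt values was not tested.

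**Figure D3:**
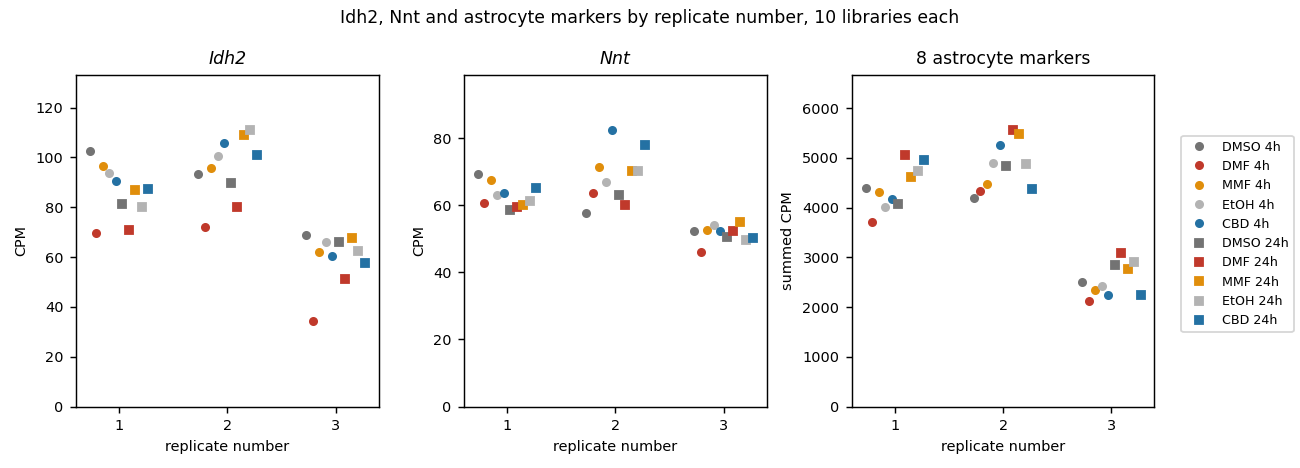
Level of Idh2, Nnt and the sum of 8 astrocyte markers in CPM (y axes, linear from 0) against replicate number (x axis), with 1 symbol for each of the 30 libraries, coloured by treatment. In each panel the 10 libraries of replicate 3 hold the lowest value of their group.

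Me3 (ENSRNOG00000017311, chr1:143534139-143733132), the other mitochondrial malic enzyme, was counted least, with 52 to 154 reads per library, and its intervals were wide. With DMF its log2 fold change was -0.02 at 4 h (95% interval -0.54 to 0.51) and 0.26 at 24 h (95% interval -0.16 to 0.68). The data do not tell apart differences that lie inside these intervals.

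Whether the DMF effect differed between 24 and 4 h was tested as an interaction over 12 libraries. By limma 0 of 8 genes passed, where 4.12% of all 14432 genes did. An unadjusted p under 0.05 was reached by 3 of 8, and by 2789 of the 14432 genes. DESeq2 called 2 of 8, Me1 and Me2, where it called 993 of the 14432 genes. By edgeR 0 of 8 were called, against 608 of the 14432 genes. For Me1 the effect at 24 h exceeded that at 4 h by 0.84 on the log2 scale (95% interval 0.35 to 1.34, adjusted p = 0.0587 by limma). For Me2 the difference was 0.51 (95% interval 0.20 to 0.82, adjusted p = 0.0648), and for Idh1 it was -0.30 (95% interval -0.53 to -0.08, adjusted p = 0.123). With the replicate block these 3 genes were called (13.2% of all genes), at adjusted p-values of 2.07e-05, 0.00692 and 0.0475. Without the block, leaving out 1 library moved Me1 past the threshold when DMF replicate 3 at 24 h (adjusted p = 0.0307) or DMSO replicate 3 at 4 h (0.0432) was absent. It moved Me2 past it without DMF replicate 3 at 24 h (0.0327) or DMF replicate 1 at 4 h (0.0457), and Idh1 without DMSO replicate 2 at 4 h (0.0424).

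DMF and MMF, the diester and its monoester, were set against each other at the matched dose of 30 µM, 1 pair of compounds at 2 times, with p-values adjusted over all genes of each comparison. At 24 h Idh1 had 5652, 5181 and 5750 normalised reads with DMF, and 6895, 6598 and 6833 with MMF. The DMF libraries were all lower, and Idh1 was the 1 gene of 8 called (3.56% of all genes), with a log2 difference of -0.29 (95% interval -0.44 to -0.15, adjusted p = 0.0465 by limma). By edgeR its adjusted p was 0.0625, and of the 6 fits without 1 library the call held only in that without DMF replicate 3 (adjusted p = 0.0374 against 0.0798 to 0.21 in the others). Me1 had 3975, 3489 and 2818 with DMF, and 2670, 2058 and 1892 with MMF in this table. All DMF libraries were higher, by a log2 difference of 0.64 (95% interval 0.29 to 0.98) that missed the threshold by limma (adjusted p = 0.0607) and passed by DESeq2 (0.00102) and with the block (0.000156). Without DMF replicate 3 it passed by limma too, at 0.77 and an adjusted p of 0.0181.

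With the replicate block 3 of the 8 genes differed between DMF and MMF at 24 h (12.2% of all genes), Me1, Idh1 and Idh2. Idh2 was lower with DMF by a log2 difference of -0.37 (95% interval -0.82 to 0.07, adjusted p = 0.376 by limma and 0.00335 with the block). At 4 h 0 of 8 differed by limma (1.61% of all 14200 genes), DESeq2 (744 genes) or edgeR (265 genes). By limma 1 of 8, Me2, had an unadjusted p under 0.05, where 2477 of the 14200 genes did. With the block 2 of 8 differed (23.6% of all genes), Me2 with a log2 difference of -0.37 (block adjusted p = 0.00053) and Idh2 with -0.56 (block adjusted p = 4.89e-05). For Me1 at 4 h the difference was 0.16 (95% interval -0.21 to 0.54) and for Taldo1 0.04 (95% interval -0.18 to 0.27). At 24 h Taldo1 differed by 0.20 (95% interval 0.03 to 0.37), Tkt by 0.09 (95% interval -0.10 to 0.28), Me2 by 0.16 (95% interval -0.06 to 0.37) and Nnt by -0.09 (95% interval -0.32 to 0.14). None of these 4 was called, with or without the block.

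**Figure D4:**
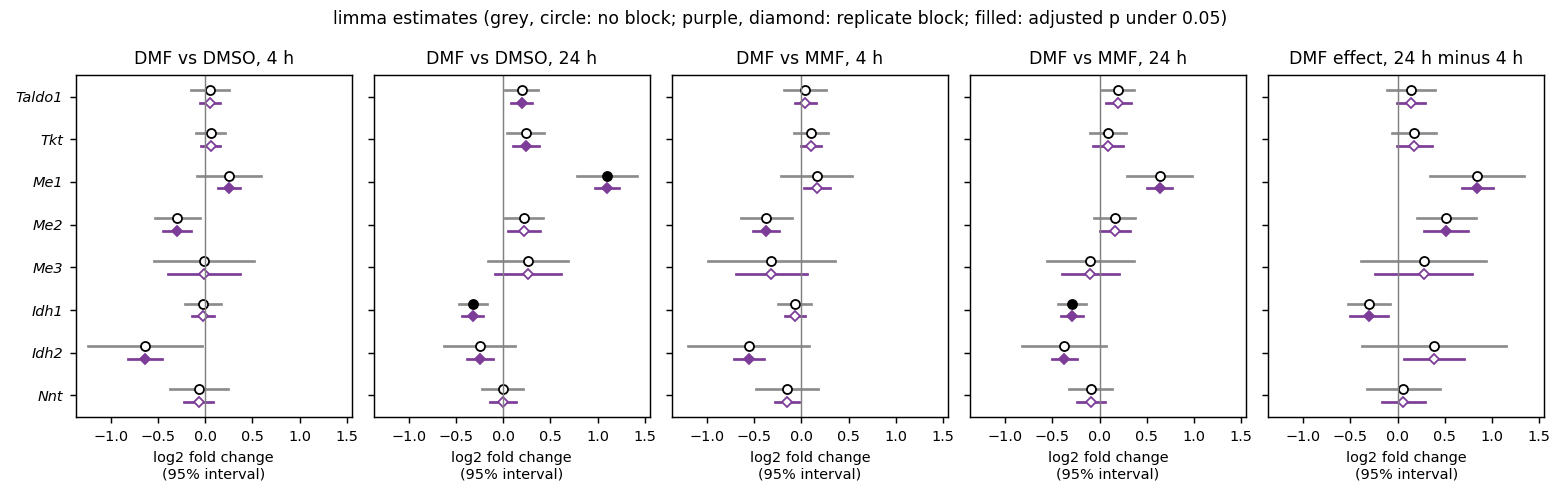
Log2 fold changes of the 8 enzymes with 95% intervals (x axis) from limma without a block (grey lines, circles) and with the replicate block (purple lines, diamonds), filled where the adjusted p is under 0.05, for DMF against DMSO, DMF against MMF and the difference of the DMF effect between times. Both estimates are the same and the intervals with the block are narrower for Me1 and Idh2.

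With MMF against DMSO, 0 of 8 genes passed at 4 h (0% of all genes by limma, and 0% with the block). None of the 8 had an unadjusted p under 0.05 by limma, where 36 of all 14032 genes did. At 24 h 0 of 8 passed by limma (0.00707% of all 14137 genes), DESeq2 (8 genes) or edgeR (1 gene). By limma 3 of 8 stood at an unadjusted p under 0.05, Me1, Tkt and Me3, where 626 of the 14137 genes did. The block called 1 of 8, Me1 (1.38% of all genes). With CBD, which was used at a lower dose and in another vehicle and so was not compared with the fumarates, 0 of 8 passed at 4 h (0.00705% of all genes, 2.33% with the block) and 0 of 8 at 24 h (0.114% and 0.504%). DESeq2 and edgeR called none of the 8 either. Over all genes DESeq2 called 18 of 14193 at 4 h and 161 of 14079 at 24 h, and edgeR 1 and 12. By limma Idh1 at 4 h was the single gene of the 8 at an unadjusted p under 0.05. Of all genes, 563 of 14193 were at 4 h and 1384 of 14079 at 24 h. Outside Idh1, the CBD log2 fold changes lay between -0.14 and 0.14. The change of effect between 24 and 4 h was called by limma for 0 of 8 genes with MMF (0% of all genes, 0% with the block) and with CBD (0%, and 0.0552% with the block). DESeq2 and edgeR also called 0 of 8 for both drugs, where DESeq2 called 17 of 14503 genes with CBD. None of the 8 had an unadjusted p under 0.05 by limma, where 131 of 14413 genes did with MMF and 625 of 14503 with CBD.

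Other genes around NADPH were counted from 4 lists chosen by function. Of 13 other pentose phosphate genes 11 were tested. Against their vehicles, DMF, MMF and CBD called 0 of the 11 by limma at either time. The median log2 fold change of the 11 genes with DMF at 24 h was -0.01, as was that of all genes tested. With the block H6pd, an enzyme of the endoplasmic reticulum that forms NADPH there, was called lower with DMF at 4 h, at -0.51 (adjusted p = 0.16 by limma, 0.0326 with the block).

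Of 8 genes of folate-linked NADPH and NADP synthesis, Mthfd2, a mitochondrial folate enzyme, rose with DMF at 4 h. It had 1069, 918 and 1367 normalised reads with DMF against 650, 537 and 608 with DMSO, a log2 fold change of 0.89 (adjusted p = 0.0245 by limma). Aldh1l1, a cytosolic folate dehydrogenase that is also used as an astrocyte marker, fell by 0.65 on the log2 scale with DMF at 24 h. It had 669, 583 and 435 against 866, 923 and 822 (adjusted p = 0.0403 by limma). Each of these calls held in 2 of 6 fits without 1 library, with adjusted p-values by limma of 0.0389 to 0.0793 for Mthfd2 and 0.0146 to 0.159 for Aldh1l1. The medians of the 8 genes were -0.03 at 4 h and -0.06 at 24 h with DMF. With CBD at 4 h Mthfd2 had a log2 fold change of 0.58 (adjusted p = 1 by limma, 0.0106 with the block). Of 12 genes that supply or use citrate and malate, 0 passed by limma in the 6 comparisons. With DMF at 24 h all 12 had negative log2 fold changes (-0.33 to -0.01, median -0.09). With CBD at 24 h all 12 did too (-0.31 to -0.04, median -0.17). The medians of all genes tested were -0.0065 and -0.0047 in these comparisons. The shared direction of the 12 genes was not tested. With the block, Acly, the enzyme that splits citrate in the cytosol, was called lower with DMF at 24 h, at -0.33 (adjusted p = 0.00992), and with CBD at 4 h, at -0.22 (0.0251). The block also called Slc25a1, the mitochondrial citrate carrier, lower with DMF at 24 h, at -0.23 (adjusted p = 0.0152), and Slc25a11, the mitochondrial carrier of oxoglutarate and malate, lower with DMF at 4 h, at -0.21 (0.0102).

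Of 8 tested enzymes that spend NADPH in redox defence, Nqo1, the quinone reductase, was 5.15 times as high with DMF at 24 h. It had 1456, 1307 and 1668 normalised reads against 308, 284 and 268, a log2 fold change of 2.35 (adjusted p = 2.19e-05 by limma). Txnrd1, the cytosolic thioredoxin reductase, had a log2 fold change of 0.68 with DMF at 4 h (adjusted p = 0.0108) and of 0.62 at 24 h (adjusted p = 0.0243), and these calls held in 4 and 2 of 6 fits without 1 library (adjusted p 0.0127 to 0.0671 and 0.00316 to 0.117 by limma). The other 6 genes were not called by limma at 24 h, and with the block Blvrb and Cbr3 were, at 0.36 (adjusted p = 0.0078) and 0.55 (0.0121). At 4 h the block also called Nqo1 higher, at 0.65, and Por, the cytochrome P450 reductase, lower, at -0.30. With MMF at 24 h Nqo1 had a log2 fold change of 0.97 (adjusted p = 0.0695 by limma, 3.3e-06 with the block), and Txnrd1 of 0.23 (adjusted p = 0.952 and 0.013).

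**Figure D5:**
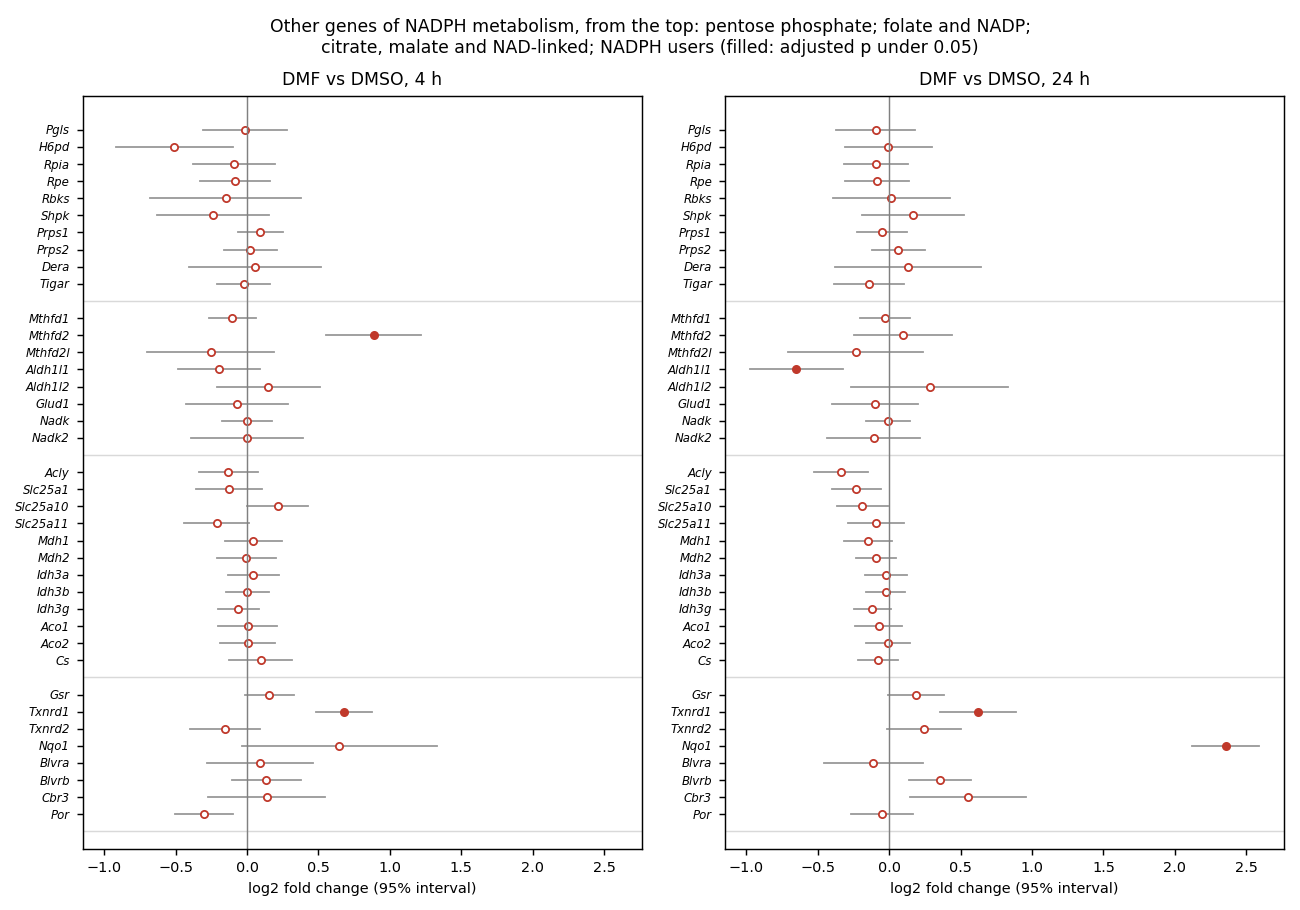
Log2 fold changes with DMF against DMSO (x axis, with 95% intervals from limma) for tested genes of 4 lists around NADPH (y axis), at 4 h on the left and 24 h on the right, filled where the adjusted p is under 0.05. Nqo1 at 24 h, at 2.35, is the farthest from 0, and the pentose phosphate genes at the top hold no filled symbol.

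Markers of other cells also moved with DMF at 24 h. The summed level of 10 proliferation markers was 112 to 134 CPM with DMF, against 268 to 296 with DMSO, and all 10 were called lower. Of 7 tested oligodendrocyte lineage markers 3 were called lower, Pdgfra at -1.56 (adjusted p = 0.00137 by limma), Cspg4 at -1.13 (0.000574) and Sox10 at -1.36 (0.00331). The summed level of that list was 587 to 731 CPM with DMF, against 729 to 890 with DMSO. Of 9 neuron markers, limma called Tubb3 lower at 4 h, at -0.64 (adjusted p = 0.025), and 0 at 24 h. Limma with the replicate block called Tubb3 (-0.49, adjusted p = 0.00227) and Nefm (-0.47, 0.00145) lower at 24 h. At 4 h the block also called Gad1 lower (-0.15) and Rbfox3 higher (0.23). The summed level of the neuron list at 24 h was 3558 to 4291 CPM with DMF, against 4250 to 4624 with DMSO. The part of these markers' cells in the changes of the enzymes was not tested.

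Over the 18 log2 ratios of drug to vehicle within a replicate number, the genes most like each enzyme were found among 13716 genes by Pearson's r, as a description. The ratios share DMSO libraries between DMF and MMF. Me1 was most like Plekhd1 (r = 0.92), Fasn (0.91), the fatty acid synthase that uses NADPH, and Fas (0.91). Idh1 was most like Trappc2 (0.88), Narf (0.87) and Rbmx (0.87), Idh2 like Mtmr10 (0.90), Afap1l2 (0.90) and Prdm16 (0.89), and Nnt like Msi1 (0.88), Gli3 (0.88) and Slc7a2 (0.85). Taldo1 was most like Ppp2r5b (0.91) and Bbln (0.86), and Tkt like Arpc1b (0.91) and Nr2c2ap (0.89). The values were lower for Me2, with Frem1 (0.85), Myo1e (0.84) and Renbp (0.82), and lowest for Me3, with Tyms (0.70), C15h14orf119 (0.69) and LOC679960 (0.66).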

How the data were processed

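Per the submitters' processing notes, trimming used cutadapt 4.4 and Trimmomatic 0.39. HISAT2 2.2.1 placed reads on mRatBN7.2, and HTSeq 2.0.3 counted them with the Ensembl 111 annotation. The strand setting is not given in the sources used here, so reads of antisense partners cannot be told apart. The deposited signal values are counts that the authors divided by a DESeq2 1.40.2 size factor per library within each table of 6 libraries. Of 19 tables, 8 were used and 11 were not, and the authors' fold change and p-value columns were not used. Whole reads were recovered for 100% of the values, within 0.01 reads.

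Groups were compared with limma 3.58.1 (trended empirical Bayes) on log2(value + 1), which understates changes of low genes, after filterByExpr of edgeR 4.0.16 on the recovered reads. Adjusted p-values are Benjamini-Hochberg over all genes tested. Interactions used the recovered reads of 12 libraries divided by median-ratio size factors. Alternatives were DESeq2 1.42.0, edgeR, TMM scaling, no filter, a pseudocount of 0.1, the replicate block, a spread from all 30 libraries and leaving out each library. The block rests on the paper's statement that experiments were repeated and on the data, as the titles do not say what a replicate number marks. Deviations from the group means correlated at 0.129 to 0.668 between libraries of the same number and at no more than 0.137 between different numbers. The ranges overlap. At 4 h MMF replicate 2 correlated at 0.129 with DMSO replicate 2 and at 0.134 with DMSO replicate 1. Deviations within a group sum to 0, which lowers the correlations between different numbers. The enzymes and all lists were chosen with earlier results of these data known. All 8 enzymes are named. Genes of the 4 lists are named where a drug's effect against vehicle was called by limma, and genes called only with the block were added after their values were seen. Some genes that these rules name are not reported here. The limma, DESeq2 and edgeR fits were tested on simulated counts with known changes. Those counts held no replicate effect, and the other steps were not tested in this way.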

Additional observations from a re-analysis of the deposited data

How the results depend on the processing

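The number of enzymes called for each comparison was 0 at 4 h with DMF, MMF and CBD and at 24 h with MMF and CBD under every alternative without a block. With the replicate block it rose to 3 (DMF, 4 h), 5 (DMF, 24 h), 1 (MMF, 24 h), 2 (DMF against MMF, 4 h), 3 (DMF against MMF, 24 h) and 3 (DMF effect, 24 h minus 4 h). edgeR with the block gave the same numbers except 2 for the last. For DMF against MMF at 24 h limma called 1 (506 of 14233 genes) and DESeq2 2 (835 of 14233). The spread from all 30 libraries called 2 (678 of 14930 genes). There edgeR (507 of 14233 genes), TMM scaling (500 of 14233) and no filter (477 of 20068) called 0. The spread from all 30 libraries also called 1 for DMF against MMF at 4 h (1383 of 14930 genes). For the DMF effect between times it called 1 (838 of 14930 genes), where DESeq2 called 2 (993 of 14432 genes). Leaving out 1 library gave 1 to 3 for DMF at 24 h, 0 to 2 for DMF against MMF at 24 h and 0 to 2 for the DMF effect between times. The cause of these differences was not tested.

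Over all genes, the numbers called for DMF at 4 h were 485 by limma, 1024 by DESeq2, 3274 with the replicate block, 3212 by edgeR with the block and 1513 with the spread from all 30 libraries (28 to 154 without 1 library). For DMF at 24 h they were 554, 850 by DESeq2, 1803 with the block and 1822 by edgeR with the block (141 to 1165 without 1 library). For MMF at 24 h they were 1, 8 by DESeq2, 195 with the block, 250 by edgeR with the block, 2 without a filter, and 0 with TMM scaling or the pooled spread (0 to 14 without 1 library). For CBD at 4 h they were 1, 18 by DESeq2, 330 with the block, 372 by edgeR with the block and 9 with the pooled spread (0 to 12 without 1 library). For CBD at 24 h they were 16, 161 by DESeq2, 71 with the block, 65 by edgeR with the block and 389 with the pooled spread (0 to 116 without 1 library). For DMF against MMF at 4 h they were 229, 744 by DESeq2, 3347 with the block, 3329 by edgeR with the block and 1383 with the pooled spread (0 to 64 without 1 library), and at 24 h 506, 835 by DESeq2, 1740 with the block and 1716 by edgeR with the block (156 to 711 without 1 library). For the DMF effect between times they were 594, 993 by DESeq2, 1904 with the block and 1936 by edgeR with the block (275 to 644 without 1 library), and for that of CBD 0, 17 by DESeq2, 8 with the block, 8 by edgeR with the block and 4 with the pooled spread (0 to 1 without 1 library).

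For single enzymes, 667 alternative values kept direction and side of the threshold, 33 passed it where limma did not, 3 no longer passed, and 1 changed sign without being called. Leaving out 1 library, 548 kept both, 107 uncalled values changed sign, 7 newly passed and 10 no longer passed. No called value changed direction. The block changed no other enzyme's call than those given beside the results. With 3 libraries a group, intervals on Me3 and Idh2 are wide.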
